A study of Mus musculus with 32 samples.

Results

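The replication-dependent histone genes were taken by name from the RNA-seq tables of the series (H1f, H2ac, H2bc, H3c and H4c names, and Hist names that the tables still use), with names marked as pseudogenes left out. This gave 66 genes among 28827 in the tables, with 64 of them among 26560 genes in the table of Lin- cells and 64 among 25887 genes in that of CD11b+ cells. They comprised 8 H1, 19 H2A, 16 H2B, 11 H3 and 12 H4 genes, of which 56 lie on mouse chromosome 13 and 8 on chromosome 3. The name rule also took in genes that are not replication-dependent, namely H1f0 and H1f10, which encode replacement linker histones, the testis genes H1f6, H2ac1 and H2bc1, and H2ac14 and Hist1h2al, which GENCODE M21 annotates as pseudogenes.

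Replication-dependent histone mRNAs are made in S phase to package newly copied DNA. They carry no introns as a rule and no poly(A) tail, and end instead in a short conserved RNA hairpin, the histone stem-loop, which the stem-loop-binding protein SLBP holds during processing, transport and translation. IGF2BP3 is an oncofetal RNA-binding protein that binds many mRNAs and is expressed in leukemia driven by rearranged MLL.

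The study examined IGF2BP3 in a mouse model of MLL-Af4 leukemia. Lin- cells were bone marrow cells depleted of mature lineages, infected with a retrovirus that carries MLL-Af4 together with resistance to G418, selected for 7 days and kept in culture. CD11b+ cells were selected with magnetic beads from spleen tumors of leukemic mice. RNA-seq covered, per cell type, 3 libraries of WT/MLL-Af4 and 3 of I3KO/MLL-Af4 cells, where I3KO is a germline deletion of Igf2bp3 that arose from leaky Vav1-Cre, and all groups carried MLL-Af4. eCLIP, which sequences RNA crosslinked to an immunoprecipitated protein, gave 6 Lin- libraries (biological replicates 1 to 3, technical replicates 4 to 6) and 4 CD11b+ libraries (biological replicates 1 and 2, technical replicates 3 and 4), each with a size-matched input (smInput). The labels give no genotype for eCLIP, and the paper describes these cells as WT/MLL-Af4. The labels give no age and do not say whether animals were pooled, and whether biological replicates came from separate animals is not stated, so the p-values measure the spread between these libraries.

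A histone gene was called bound where a peak of the CLIPper caller (p at most 0.05) carried its Ensembl ID and was kept after the authors had removed peaks that overlap an smInput peak. These are called filtered peaks. The eCLIP libraries held 5455 to 11771 peaks before and 4040 to 10054 after this filter, and the smInput libraries 217 to 1885. Total read depth is unknown, and the absence of a peak does not show the absence of binding. Markers of the cell types were read in the RNA-seq tables, as percentiles of the authors' mean among all genes. The 5 progenitor markers (Kit, Cd34, Myb, Flt3 and Mpo) lay between 97.4 and 99.99 in Lin- cells and between 69.1 and 99.98 in CD11b+ cells. Of the 6 myeloid markers, 5 lay between 95.2 and 99.98 in CD11b+ cells and, high as well, between 85.1 and 99.7 in Lin- cells. Itgam, the gene of CD11b itself, was at 41.8 in CD11b+ cells and had no value in the Lin- table. It carried 6 and 8 filtered eCLIP peaks in the CD11b+ biological replicates. The 3 B cell markers lay between 15.5 and 32.3 in Lin- and between 52.6 and 58.3 in CD11b+ cells, the 3 erythroid markers between 32.5 and 49.7 and between 40.5 and 85.9. The T cell markers lay between 16 and 40.4 in Lin- and between 28.4 and 32.4 in CD11b+ cells, and both megakaryocyte markers at 64.9 and 85.9 in Lin- and at 20.9 and 49.3 in CD11b+ cells. The part of such cells in the results was not tested.

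The stem-loop was found by sequence in 60 of the 66 genes. The histone stem-loop pattern searched has 16 bases, with GG, 3 pyrimidines, TT, 1 pyrimidine, T, any base, A, 3 purines and CC in this order, and was sought on the strand of the gene within 100 bases after the stop codon. It began 21 to 58 bases after the stop codon (median 30). The same window held the pattern in 64 of 21938 protein-coding genes of GENCODE M21 (0.292%), 57 of them histone genes of the present list. The 6 genes without it were H1f0, H1f10, H2bc21, Hist1h2an and the pseudogenes H2ac14 and Hist1h2al. A total of 8 different stem-loops occurred, of which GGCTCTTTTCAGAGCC was shared by 37 genes, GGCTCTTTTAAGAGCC by 9 and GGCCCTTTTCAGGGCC by 7. The following windows, from GRCm38 (mm10) and written 5′ to 3′ on the strand of the gene, are those with an IGF2BP3 peak in at least 2 CD11b+ libraries, followed by H4c3 and H2ac6, which had such a peak in the most Lin- libraries. Capitals mark the stem-loop. They lie at chr13:23581943-23581972 (+, H4c4), chr13:21735430-21735459 (+, H4c11), chr13:23585524-23585553 (-, H2bc6), chr3:96262932-96262961 (-, H4c14), chr13:23698082-23698111 (-, H4c3) and chr13:23683470-23683499 (-, H2ac6), in the 3′ part of each transcript after the stop codon.
H4c4: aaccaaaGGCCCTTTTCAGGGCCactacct
H4c11: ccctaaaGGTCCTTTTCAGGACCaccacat
H2bc6: aaccaaaGGCTCTTTTCAGAGCCacccaac
H4c14: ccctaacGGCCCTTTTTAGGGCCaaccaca
H4c3: aacaaaaGGCCCTTTTCAGGGCCacccaca
H2ac6: acccaaaGGCTCTTTTCAGAGCCcccactt

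Over all libraries together, IGF2BP3 peaks lay on 51 of the 66 histone genes in Lin- cells and on 16 in CD11b+ cells. In single libraries, only Lin- replicates 2 and 5 had a peak on most of the genes. In Lin- cells, 28, 49 and 31 histone genes were bound in biological replicates 1 to 3, and 18, 49 and 32 in technical replicates 4 to 6. In CD11b+ cells, 8 genes were bound in each biological replicate, and 5 and 3 in the technical replicates. The libraries of the 2 cell types did not overlap, and replicates 2 and 5 of Lin- cells stood above the other Lin- libraries. The biological libraries averaged 36.0 ± 11.4 bound genes (SD, n = 3) in Lin- cells, against 8 in both CD11b+ libraries, a difference of 28 with an exact permutation p of 0.1, two-sided, which is the smallest that 3 against 2 libraries allow.

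The count was read against all genes of the tables. Over all Lin- libraries, 49 of the 64 histone genes in the table were bound (76.6%), where 26.5% of all genes were. In CD11b+ cells, 16 of 64 were bound (25.0%), where 25.6% of all genes were, so that the share was near the background. Histone transcripts are short, and short transcripts were bound less often. Among genes whose longest transcript has at most 1000 bases, 38 of 47 histone genes were bound in Lin- cells against 7.08% of all such genes, and 9 of 47 in CD11b+ cells against 4.25%. At 10 or more normalized counts, 34 of 40 histone genes were bound in Lin- cells against 39.8% of all genes, and 14 of 50 in CD11b+ cells against 37.1%. At 100 or more, 10 of 11 were bound in Lin- cells against 51.9%, and 2 of 6 in CD11b+ cells against 47.9%. With both limits, on a short transcript and on 10 counts, 25 of 27 were bound in Lin- cells against 14.4%, and 8 of 36 in CD11b+ cells against 6.94%. Library by library, the histone genes of the table were bound in 42.2%, 73.4% and 46.9% in Lin- replicates 1 to 3, where 13.2%, 16.6% and 15.4% of all genes were bound. In CD11b+ replicates 1 and 2, 12.5% were bound in each, where 14.9% and 17% of all genes were bound. The technical libraries gave 28.1%, 73.4% and 48.4% against 8.24%, 11.2% and 9.37% in Lin- replicates 4 to 6, and 7.81% and 4.69% against 14.1% and 13% in CD11b+ replicates 3 and 4. Every Lin- library thus lay above and every CD11b+ library below the share over all genes, which is not matched for transcript length. Among short transcripts, the CD11b+ share over all libraries lay above that of all such genes, as given above, and shares per library were not computed. With a peak required in at least 2 biological libraries, 34 of 64 histone genes were bound in Lin- cells (53.1%) and 3 of 64 in CD11b+ cells (4.69%).

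**Figure D1:**
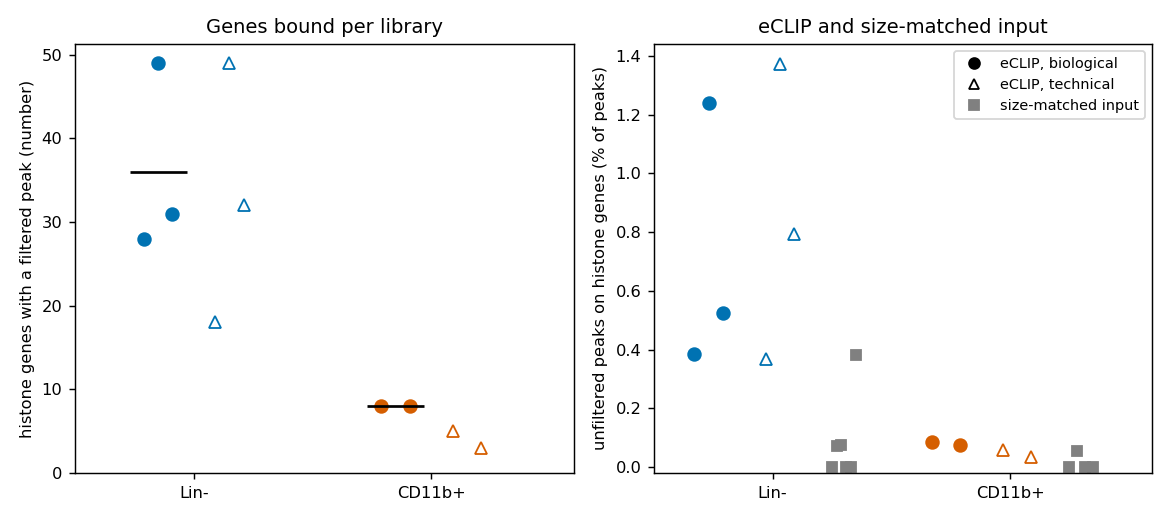
Histone genes with a filtered IGF2BP3 peak per library (left, number of genes) and the percentage of unfiltered peaks on histone genes in eCLIP and size-matched input libraries (right). Circles are biological and triangles technical eCLIP libraries, squares are inputs, and black lines are the means of the biological libraries. The Lin- eCLIP libraries sit at 18 to 49 genes, above the CD11b+ libraries at 3 to 8.

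The share of peaks showed the same order with a wide spread. Histone genes took 0.475%, 1.41% and 0.530% of the filtered peaks in Lin- biological replicates 1 to 3 (35 of 7361, 142 of 10042 and 46 of 8685 peaks), with Wilson 95% intervals of 0.342 to 0.661, 1.20 to 1.66 and 0.397 to 0.706. In CD11b+ replicates 1 and 2, they took 0.0939% and 0.0796% (8 of 8521 and 8 of 10054 peaks), with intervals of 0.0476 to 0.185 and 0.0403 to 0.157. These intervals cover counting error only. Abutting peaks were counted separately here and below, so peak counts and shares depend on how the caller split a stretch. In Lin- replicate 2, H4c12 had 7 filtered peaks in 1 such stretch, and 100 of the 142 histone peaks were at least 20 bases wide. The technical libraries lay at 0.495%, 1.63% and 0.865% in Lin- and at 0.0659% and 0.0423% in CD11b+ cells. The means of the biological libraries, 0.806 ± 0.527% (SD, n = 3) and 0.0867 ± 0.0101% (SD, n = 2), differed by 0.720 percentage points, with an exact permutation p of 0.2, two-sided. The smallest possible p was 0.1, so that this test could not pass 0.05 and does not decide. Without Lin- replicate 2, the difference was 0.416 percentage points.

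The number that CLIPper wrote into each peak name, read here as the reads in that peak, gave a wider gap. Histone peaks held 341 of 82467, 4450 of 233695 and 747 of 73052 reads in filtered peaks of Lin- biological replicates 1 to 3 (0.413%, 1.90% and 1.02%). In CD11b+ replicates 1 and 2, they held 49 of 109188 and 49 of 161236 reads (0.0449% and 0.0304%). The difference of means was 1.08 percentage points (exact permutation p = 0.2, two-sided, 3 against 2 libraries), and 0.680 without Lin- replicate 2. A histone peak held a median of 6, 17 and 11 reads in Lin- replicates 1 to 3, where other peaks held 6, 7 and 5, and 3.5 and 5 reads in CD11b+ replicates 1 and 2, where other peaks held 7 and 8.

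All classes were bound in Lin- cells, in unequal parts. The H4 genes, which encode the most conserved core histone, were bound in full, 12 of 12. Of the H2A genes, 17 of 19 were bound, of the H2B genes 12 of 16, of the H1 genes 5 of 8 and of the H3 genes 5 of 11. In CD11b+ cells, 7 of 12 H4 genes, 2 of 19 H2A, 2 of 16 H2B, 3 of 8 H1 and 2 of 11 H3 genes had a peak in any library. Of the 51 genes bound in Lin- cells and the 16 bound in CD11b+ cells, 15 were the same, which is 29.4% of the Lin- and 93.8% of the CD11b+ genes. With 51 of the 66 genes bound in Lin- cells, most of any 16 would be expected among them. The overlap over all genes was not computed. H1f0 was the only gene bound in CD11b+ but not in Lin- cells, and 14 genes had no peak in either. These 14 were the H3 genes H3c4, H3c7, H3c8, H3c10, H3c11 and H3c13, the H2B genes H2bc1, H2bc9, H2bc14 and Hist1h2br, the H2A genes H2ac1 and H2ac21, and the H1 genes H1f6 and H1f10, named here after their values were seen. Of these, H3c4, H3c7, H3c8, H3c10, H3c11, H2bc9 and H2bc14 carry Ensembl IDs numbered above those of every bound histone gene. Peaks were joined by ID, and whether the peak caller's gene set held these IDs was not tested. The low count of bound H3 genes therefore does not show that H3 genes were bound less.

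A peak in at least 2 libraries of either cell type was found for 50 genes. The H1 genes among them were H1f0, H1f1, H1f2, H1f3, H1f4 and H1f5. The H2A genes were H2ac4, H2ac6, H2ac7, H2ac8, H2ac10, H2ac11, H2ac12, H2ac13, H2ac15, H2ac18, H2ac19, H2ac20, Hist1h2al, Hist1h2an, Hist1h2ao and Hist1h2ap. The H2B genes were H2bc3, H2bc4, H2bc6, H2bc7, H2bc8, H2bc11, H2bc12, H2bc13, H2bc15, Hist1h2bp and Hist1h2bq. The H3 genes were H3c1, H3c2, H3c3, H3c6 and H3c15, and the H4 genes were all 12. In all 6 Lin- libraries, 12 genes were bound, H1f1, H1f2, H1f3, H1f5, Hist1h2al, Hist1h2ap, H2bc11, H3c1, H3c6, H4c4, H4c6 and Hist1h4m. H4c4 was the only histone gene bound in all 4 CD11b+ libraries. The remaining bound genes, H2ac14 and H2bc21, had a peak in 1 Lin- library each.

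The linker histone genes held 2737 reads in filtered peaks over the 6 Lin- libraries, on 5 of 8 genes, of which 1416 and 862 lay in replicates 2 and 5. They led the classes in replicates 2, 3, 5 and 6, but not in replicates 1 and 4, where they held 58 and 28 reads against 148 and 47 for H2A and 84 and 54 for H4. Before the input filter, H2A led over the 6 libraries with 8363 reads against 2826 for H1, mostly at 1 site described further on. H1f3 had 15, 391 and 92 reads in filtered peaks in biological replicates 1 to 3 and 5, 235 and 41 in technical replicates 4 to 6, and none in CD11b+ cells. H1f5 had 20, 286 and 93 reads in replicates 1 to 3 and 9, 157 and 60 in replicates 4 to 6, again with none in CD11b+ cells. H1f2 had 14, 342 and 46 reads in replicates 1 to 3 and 5, 204 and 16 in replicates 4 to 6, and 5 reads in CD11b+ replicate 2. For all of them, replicates 2 and 5 were highest and replicate 4 was lowest. H1f4 had no peak in replicates 1 and 6 and held 348 and 217 reads in replicates 2 and 5.

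Among the core histones, Hist1h4m (an H4 gene) had 9, 368 and 80 reads in Lin- replicates 1 to 3 and 10, 211 and 43 in replicates 4 to 6. It had 5 reads in CD11b+ replicate 4 and no peak in the other CD11b+ libraries. H4c12 had 20, 426 and 0 reads in Lin- replicates 1 to 3 and 14, 263 and 0 in replicates 4 to 6. The 0 in replicates 3 and 6 comes from the input filter, which removed H4c12 peaks of 57 and 49 reads there. Among the smInput libraries, replicate 6 held 2 peaks on H4c12 and replicate 3 held none. H3c1 had 14, 289 and 79 reads in Lin- replicates 1 to 3 and 7, 165 and 39 in replicates 4 to 6, and none in CD11b+ cells. H2bc11 had 9, 146 and 28 reads in Lin- replicates 1 to 3 and 5, 128 and 15 in replicates 4 to 6, and none in CD11b+ cells. Hist1h2ap (an H2A gene) had 7, 130 and 21 reads in Lin- replicates 1 to 3 and 8, 103 and 16 in replicates 4 to 6, likewise with none in CD11b+ cells.

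**Figure D2:**
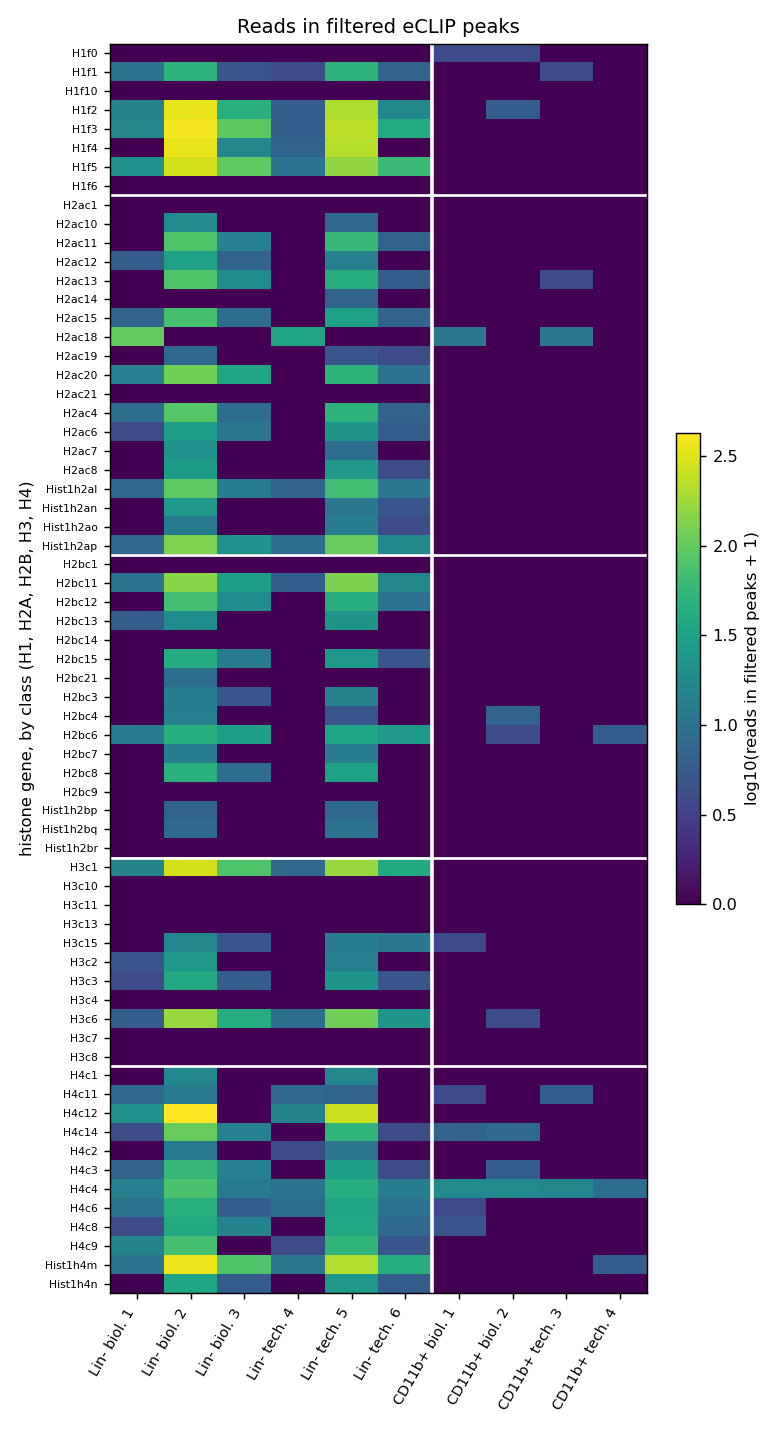
Reads in filtered peaks for each of the 66 histone genes (rows, by class) in each eCLIP library (columns), on a log10(reads + 1) color scale, with the darkest color for genes without a filtered peak. Lin- biological replicate 2 and technical replicate 5 have the most filled rows, 49 each, and H4c4 is the only row filled in all 4 CD11b+ columns.

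The peaks lay in different parts of the genes in the 2 cell types. Each peak was placed by its middle on a coding model from GENCODE M21. In Lin- replicates 2 and 3, 122 of 142 and 38 of 46 filtered peaks lay in the coding sequence, and 8 and 1 after the stop codon. In Lin- replicate 1, 19 of 35 lay in the coding sequence and 14 after the stop codon. In CD11b+ replicates 1 and 2, 1 of 8 lay in the coding sequence and 7 of 8 after the stop codon in each. The technical libraries had 10 of 20, 95 of 106 and 29 of 39 peaks in the coding sequence in Lin- replicates 4 to 6, and 1 of 5 and 0 of 3 in CD11b+ replicates 3 and 4. Replicates 1 and 4 of Lin- cells, which had the fewest histone peaks of the Lin- libraries, lay between the other Lin- libraries and the CD11b+ libraries.

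**Figure D3:**
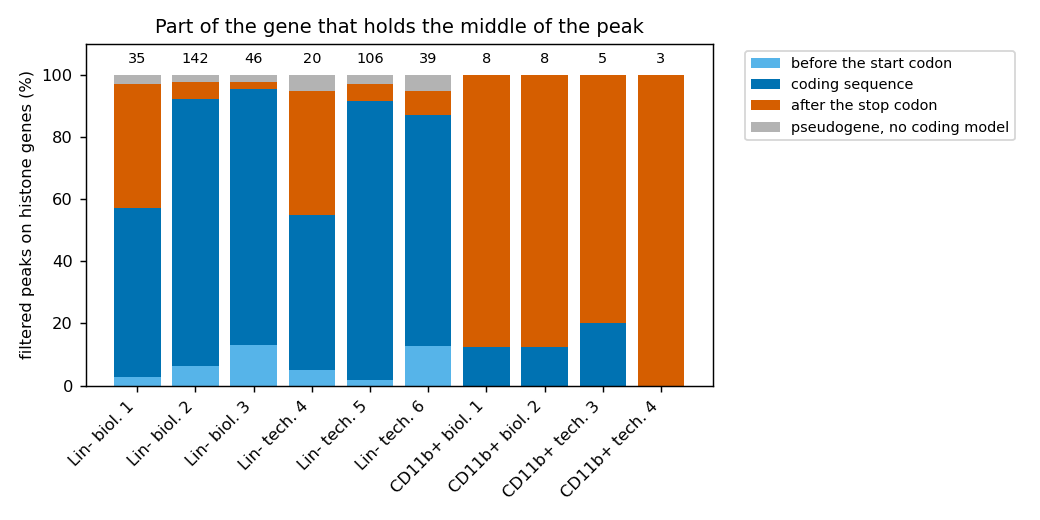
Share of filtered histone peaks (percent, stacked bars from 0) whose middle lies before the start codon, in the coding sequence, after the stop codon or on a pseudogene without a coding model, for each eCLIP library, with the number of peaks above each bar. Coding sequence takes 50 to 89.6% in the Lin- libraries and 0 to 20% in the CD11b+ libraries.

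Of 59 filtered peaks after the stop codon on genes with a stem-loop, over all libraries, 57 overlapped it. The stem-loop begins 21 to 58 bases after the stop codon and these mRNAs end in it. Such peaks therefore had little room elsewhere, and this count does not show a preference for the stem-loop. Among filtered peaks on genes with a stem-loop, 6 of 7 and 5 of 7 overlapped it in CD11b+ biological replicates 1 and 2 (85.7% and 71.4%), and 4 of 5 and 3 of 3 in technical replicates 3 and 4. In Lin- biological replicates 1 to 3, 15 of 34, 12 of 135 and 3 of 45 overlapped it (44.1%, 8.89% and 6.67%), and in technical replicates 4 to 6, 8 of 19, 10 of 102 and 3 of 36 (42.1%, 9.80% and 8.33%). No Lin- library reached the lowest CD11b+ library. The means of the biological libraries were 19.9 ± 21% (SD, n = 3) and 78.6 ± 10.1% (SD, n = 2), with an exact permutation p of 0.2, two-sided, so that the difference did not pass. With shares of reads in place of peaks, the difference was -67.9 percentage points with an exact permutation p of 0.1, the smallest possible. This comparison was added after the peaks had been seen, and the CD11b+ shares rest on 7 peaks a library. As numbers, the stem-loop peaks of the cell types overlapped, with 15, 12 and 3 against 6 and 5 per biological library, while the coding peaks did not, with 19, 122 and 38 against 1 and 1. These numbers, too, count abutting peaks separately, above all in Lin- replicate 2, and are not numbers of separate binding sites.

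**Figure D4:**
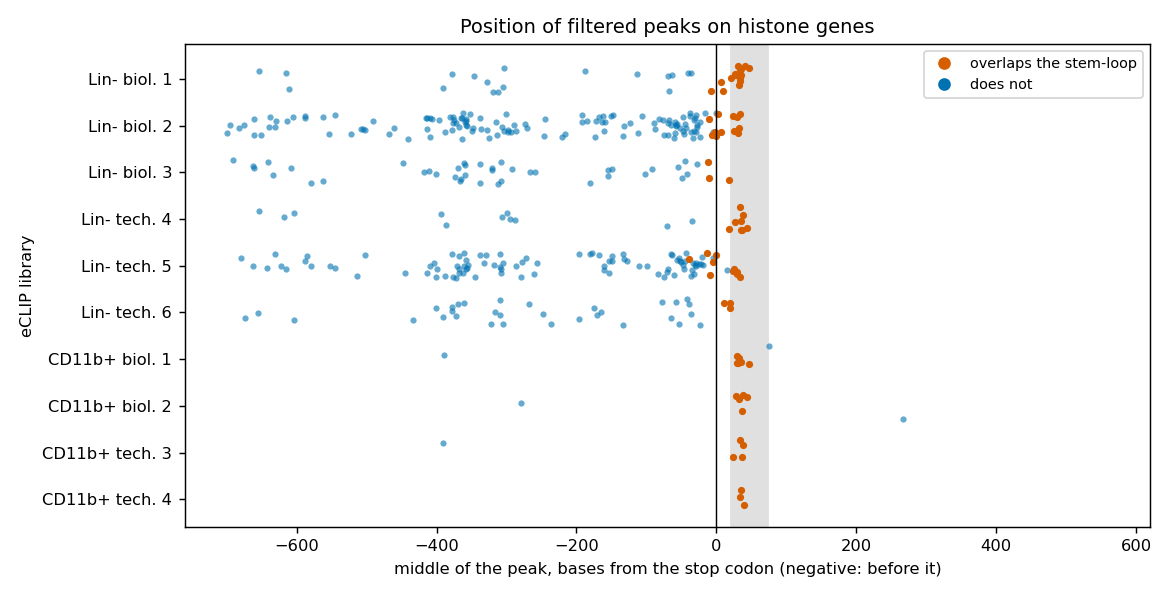
Middle of each filtered histone peak in bases from the stop codon (x axis, negative before it) for each eCLIP library (y axis), with peaks that overlap the stem-loop in orange and others in blue. The gray band spans the stem-loops, which begin 21 to 58 bases after the stop codon, and 6 peaks on H2bc6 and H2bc4 lie outside the axis. CD11b+ peaks gather in the band, while Lin- peaks spread over the coding sequence.

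H4c4, whose window is printed first above, carried the most constant stem-loop peak. In CD11b+ cells it held 17 and 17 reads in biological replicates 1 and 2 and 15 and 8 in technical replicates 3 and 4. These peaks were 41 to 46 bases wide, and their middles lay 35.5 to 39.5 bases after the stop codon. In Lin- cells, the same site had 13 and 9 reads in replicates 1 and 4 and no filtered peak in replicates 2, 3, 5 and 6, where H4c4 was bound in its coding sequence instead. The stem-loop of H4c14 had 6 and 7 reads in CD11b+ replicates 1 and 2 and no filtered peak in Lin- cells, where its gene held peaks in 5 libraries. H4c11 had 3 and 5 stem-loop reads in CD11b+ replicates 1 and 3, and 7, 11, 7 and 6 in Lin- replicates 1, 2, 4 and 5. H2bc6 had 3 and 5 in CD11b+ replicates 2 and 4, and 5, 10 and 7 in Lin- replicates 1, 2 and 5. A stem-loop peak in at least 1 library was found for 26 genes, 24 of them in Lin- and 12 in CD11b+ cells, with 10 in both. Several of these rest on 3 reads, the fewest that any histone peak held. By stem-loop sequence, 16 of 37 genes with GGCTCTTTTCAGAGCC and 5 of 7 with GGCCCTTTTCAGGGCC had a peak on it, and 1 of 9 with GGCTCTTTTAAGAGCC.

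When peaks that overlap on 1 strand were merged over libraries, the histone genes held 102 sites, 98 seen in Lin-, 17 in CD11b+ and 13 in both. All 3 Lin- biological libraries had a peak in 16 sites, and all 6 Lin- libraries in 8. Both CD11b+ biological libraries had a peak in 2 sites, at the stem-loops of H4c4 and H4c14. A merged site is a chain of overlapping peaks, so libraries counted at 1 site need not overlap each other there. At the H4c14 site, counted in both cell types, the CD11b+ peaks lay on the stem-loop and the Lin- peaks did not. The sequences below come from coding sites in all 3 Lin- biological replicates, 1 for each gene. They are the 4 with the most reads among sites clear of the stem-loop whose leading peak is 20 to 120 bases wide with at most 30 bases outside the coding sequence. These limits leave out sites of H1f3, H3c1 and H4c14, whose leading peaks of 141, 96 and 85 reads lie above that of H3c6 with 82. Each line gives the stretch of the peak that held them and, in capitals, the 4 bases that the peak file marks as its center. They come from GRCm38 and lie at chr13:21811772-21811816 (+, Hist1h4m, across the start codon), chr13:21833086-21833155 (-, Hist1h2ap), chr13:22043266-22043341 (+, H2bc11) and chr13:23562205-23562292 (-, H3c6).
Hist1h4m: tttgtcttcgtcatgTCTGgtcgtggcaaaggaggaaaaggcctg
Hist1h2ap: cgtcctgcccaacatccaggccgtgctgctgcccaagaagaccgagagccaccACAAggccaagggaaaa
H2bc11: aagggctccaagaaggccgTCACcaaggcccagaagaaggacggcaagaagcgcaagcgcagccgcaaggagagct
H3c6: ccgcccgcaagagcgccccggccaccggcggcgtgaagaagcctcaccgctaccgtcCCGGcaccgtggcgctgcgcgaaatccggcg

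The reads that follow are those of filtered peaks that overlap the printed stretch, not of the whole merged site. The Hist1h4m stretch held 3, 316 and 80 reads in Lin- replicates 1 to 3 and 6, 166 and 40 in replicates 4 to 6, and no filtered peak in CD11b+ cells. The Hist1h2ap stretch, near the end of its coding sequence, held 7, 123 and 21 reads in Lin- replicates 1 to 3 and 5, 103 and 16 in replicates 4 to 6. The H3c6 stretch held 5, 82 and 42 reads in Lin- replicates 1 to 3 and 8, 110 and 22 in replicates 4 to 6, and 3 reads in CD11b+ replicate 2. An abutting H3c6 peak of 73 reads in Lin- replicate 2 lies outside the stretch and is left out. The H2bc11 stretch held 9, 102 and 28 reads in Lin- replicates 1 to 3 and 5, 89 and 15 in replicates 4 to 6, and no filtered peak in CD11b+ cells. An abutting H2bc11 peak of 44 reads in Lin- replicate 2 is likewise left out. On each of the 4 stretches, Lin- replicates 2 and 5 were highest and replicates 1 and 4 lowest.

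Histone genes resemble each other, which limits how firmly a peak belongs to the gene it is assigned to. Of the histone peaks at least 20 bases wide, 24.4 to 38.0% in the Lin- libraries had a sequence that occurs letter for letter in another histone gene of the list or of GENCODE M21, and 1 of 8 in each CD11b+ biological library. The paper describes a displayed coverage track as unique reads, and whether the peaks too rest on uniquely placed reads was not settled here. The median GC content of histone peaks was 58.2 to 64.5% in the Lin- libraries against 49.2 to 54.1% for other peaks, and 46.7 to 53.5% in the CD11b+ libraries against 50 to 52.3%.

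A site in an H2A pair on chromosome 3 held a large part of the reads in histone peaks, and its gene assignment goes against its position. Peaks with the ID of H2ac18 lay at chr3:96240214-96240284 on the minus strand, over the start of the coding sequence of H2ac19 (chr3:96239749-96240276, -), while H2ac18 itself is annotated at chr3:96245497-96246082 on the plus strand. The 2 genes are near copies. Before the input filter, this site held 99, 2766 and 1501 reads in Lin- biological replicates 1 to 3, which was 29.0%, 38.3% and 63.5% of all reads in histone peaks there. It held 33, 1484 and 886 reads in technical replicates 4 to 6, and 10 and 11 in CD11b+ replicates 1 and 2. The filter removed it in Lin- replicates 2, 3, 5 and 6 and in CD11b+ replicate 2. The smInput libraries held a peak there with 5, 4 and 3 reads in Lin- replicates 2, 3 and 6 and 13 reads in CD11b+ replicate 2, and none in Lin- replicate 5. The counts above that rest on filtered peaks therefore leave it out in those libraries. Another 3 peaks, with 3 to 7 reads and the ID of H2ac19, lay on H2ac18. With genes assigned by coordinates on the strand in place of IDs, the difference in bound genes was 32.2 (exact permutation p = 0.1), and without H2ac18 and H2ac19 it was 27.8.

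Histone genes gave few peaks in the size-matched inputs, which were libraries made from a small part of each eCLIP sample. Of the unfiltered eCLIP peaks, 0.384%, 1.24% and 0.525% lay on histone genes in Lin- biological replicates 1 to 3, against 0%, 0.0725% and 0.0751% in the smInput libraries of the same number. In CD11b+ replicates 1 and 2, 0.0837% and 0.0765% did, against 0% and 0.0531%. A count of 0 among 1808 and 1665 smInput peaks allows a share of up to 0.166% and 0.180%, which is above the eCLIP value of both CD11b+ replicates. In every pair, the eCLIP library was higher, and the mean difference was 0.422 percentage points with an exact permutation p of 0.0167, two-sided, labels permuted within the cell type over 5 eCLIP and 5 smInput libraries, which is the smallest this design allows. Without replicate 2 of Lin- cells, the mean difference was 0.235 percentage points. Each input was taken from the sample of its eCLIP library, and permuted within these pairs the same difference had an exact p of 0.0625, the smallest that 5 pairs allow, so that the call did not hold under the replicate block. Over all 10 smInput libraries, histone genes had 7 peaks, of which 4 carried the ID of H2ac18, 2 that of H4c12 and 1 that of H1f4. Inputs and eCLIP libraries were deduplicated with different settings, and the inputs had far fewer peaks. The part of this in the difference was not tested.

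The input filter removed 0 of 35, 2 of 144 and 6 of 52 histone peaks in Lin- replicates 1 to 3, and 0 of 8 and 1 of 9 in CD11b+ replicates 1 and 2. The removed peaks included all 2 in Lin- replicate 2, 4 of the 6 in Lin- replicate 3 and the 1 in CD11b+ replicate 2 that lay at the H2ac19 start. Of other peaks, the filter removed 19.3%, 13.6% and 12.4% in the Lin- and 10.8% and 14.6% in the CD11b+ libraries. The share was lower for histone peaks in 5 of 5 libraries, with a mean difference of -9.33 ± 7.35 percentage points (SD, n = 5), with an exact sign-flip permutation p of 0.0625, the smallest possible.

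Histone peaks of Lin- cells recurred between biological replicates. Of the filtered histone peaks in Lin- replicates 1 to 3, 29 of 35, 101 of 142 and 45 of 46 (82.9%, 71.1% and 97.8%) overlapped a filtered peak of another Lin- biological library on the same strand, where 54.2%, 48.1% and 50% of other peaks did. In CD11b+ cells, 2 of 8 did in each library (25.0%), where 45.2% and 40.1% of other peaks did. Over the 5 libraries, histone peaks were shared more often by a mean of 12.8 percentage points, higher in 3 of 5 libraries, with an exact sign-flip permutation p of 0.375. All 3 Lin- libraries were above and both CD11b+ libraries below their other peaks, and without Lin- replicate 2 the mean over the rest was -2.32 percentage points. Widths did not differ beyond their spread. The median histone peak was 62, 33 and 52 bases wide in Lin- replicates 1 to 3 and 38 and 32.5 in CD11b+ replicates 1 and 2, where other peaks had 51, 40, 48, 48 and 50 bases (mean difference of -3.90 bases, exact sign-flip permutation p = 0.5, 5 libraries), and the mean width gave the other sign.

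The RNA-seq libraries were selected for poly(A), which mature replication-dependent histone mRNAs lack, so that these levels describe only transcripts that passed the selection. The values are the authors' mean normalized count of a gene over both genotypes, without a spread. The median histone gene was at 20.1 normalized counts in Lin- cells (range 0.329 to 2934), a percentile of 42.8 in its table, and at 38.0 in CD11b+ cells (range 1.01 to 1839), a percentile of 48.2. The tables were normalized separately. On that footing, 42 of 62 genes in both tables had a higher value in the CD11b+ table, with a median difference of 0.33 on the log2(value + 1) scale, where the median over 23620 genes was -0.58.

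**Figure D5:**
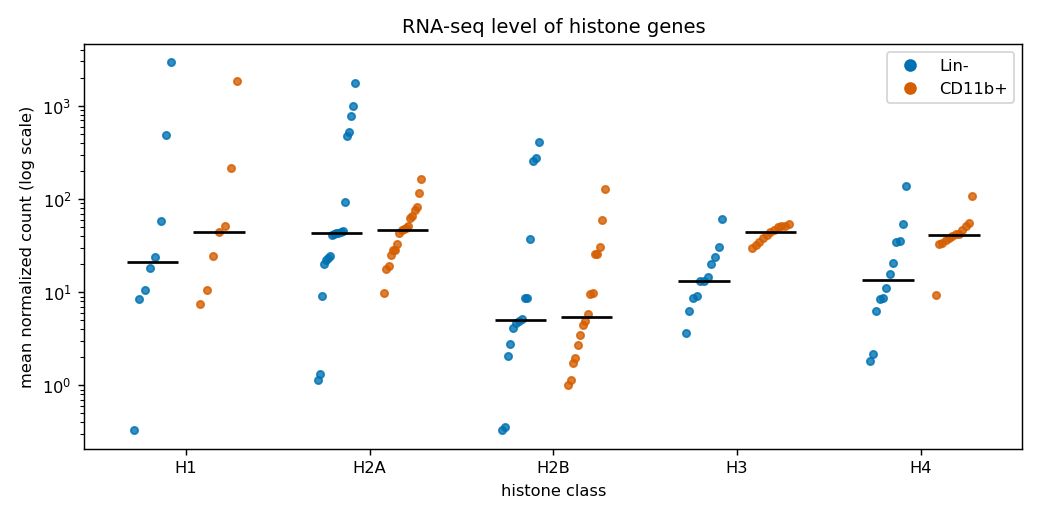
Mean normalized count of each histone gene (points, log scale) by class in the RNA-seq tables of Lin- (blue) and CD11b+ cells (orange), with black lines at the class medians. H3 and H4 genes lie lower in the Lin- table, at medians of 13.2 and 13.4, than in the CD11b+ table, at 44.0 and 41.0.

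Within the Lin- table, a few genes stood out. H1f0, a replacement linker histone with a polyadenylated mRNA, had 2934 normalized counts and was followed by the H2A genes Hist1h2ao (1757), H2ac14 (1009), H2ac6 (772) and H2ac4 (525.8) and by the H1 gene H1f2 (483). Per kb of the longest transcript, Hist1h2ao was highest of these at 3660 and H1f0 was at 1428. The leading H2B genes were H2bc21 (406), H2bc4 (276) and H2bc6 (258), the leading H4 genes H4c9 (138), H4c8 (54.5) and Hist1h4m (35.9), and the leading H3 genes H3c15 (61.1), H3c8 (30.5) and H3c3 (23.7). H1f10, the other replacement linker histone, was at 57.5. In the CD11b+ table, H1f0 (1839), H1f2 (217) and H1f4 (51.8) led the H1 genes, H2ac19 (164), Hist1h2ap (116) and Hist1h2al (82.1) the H2A genes, and H2bc21 (128), H2bc4 (59.0) and H2bc6 (30.8) the H2B genes. H3c2 (54.1), H3c4 (51.6) and H3c10 (51.6) led H3, and H4c9 (108), Hist1h4n (54.9) and Hist1h4m (51.1) led H4.

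Across 64 genes, which share their libraries and are not independent, Spearman's rho between the mean normalized count and the reads in filtered peaks was 0.195 in Lin- and 0.0799 in CD11b+ cells, given as a description. H1f0, the highest gene of both tables, had no filtered peak in Lin- cells and 3 reads in each CD11b+ biological library, after the stop codon. H2ac14 had 6 reads in 1 Lin- library, and Hist1h2ao had 11, 12 and 3 reads in Lin- replicates 2, 5 and 6. H4c12, with 723 reads over the Lin- libraries, had a mean of 15.7 normalized counts there. In bulk samples, fewer cells that express a gene and less RNA per cell cannot be told apart.

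The other genes of histone supply were read from lists. Of the replacement histones, which have polyadenylated mRNAs in the main, 8 of 11 were bound in Lin- and 7 of 11 in CD11b+ cells. Among all genes, 26.5% and 25.6% were bound, and among genes with at least 100 normalized counts, 51.9% and 47.9%. The median of the list was 2934 normalized counts in Lin- and 1839 in CD11b+ cells. H1f0 and H1f10 belong to this list too. H2afy (macroH2A1) had 8, 17 and 9 filtered peaks in Lin- biological replicates 1 to 3 and 8 and 6 in CD11b+ replicates 1 and 2. H2afz, a histone exchanged into chromatin outside S phase, had 8, 8 and 7 in Lin- and 3 and 4 in CD11b+ cells, and H3f3b, which encodes H3.3, had 3, 6 and 5 against 3 and 1. Per library, 6, 6 and 7 of these 11 genes were bound in Lin- and 7 and 5 in CD11b+ biological replicates, so that the groups overlapped.

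Of the genes for histone mRNA 3′ ends and histone transcription, 13 of 16 in the Lin- and 7 of 16 in the CD11b+ table were bound, against 26.5% and 25.6% of all genes and 51.9% and 47.9% of genes with at least 100 normalized counts. The median of the list was 2645 normalized counts in Lin- and 1157 in CD11b+ cells, and its CD11b+ count was near the share at such levels. Srrt, which joins the cap complex to histone processing, had 7, 5 and 5 peaks in Lin- biological replicates and 2 and 1 in CD11b+ ones. Cdk2, the S-phase kinase, had 2, 2 and 2 against 1 and 2, and Ncbp1, a cap-binding subunit, 0, 1 and 0 against 2 and 2. Slbp, which was chosen for mention after its values were seen, had 1, 2 and 2 peaks in Lin- biological replicates and no filtered peak in CD11b+ cells, at 2304 and 1159 normalized counts.

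Genes of S phase, too, were bound in larger number in the Lin- libraries. Of the 22 in the tables, 19 were bound in Lin- and 10 in CD11b+ cells. All lay above 100 normalized counts, where 51.9% of genes were bound in Lin- and 47.9% in CD11b+ cells, so that the CD11b+ count was near the background. Per library, the list had 14, 11 and 14 bound genes in Lin- biological replicates 1 to 3 and 2 and 3 in CD11b+ ones, without overlap. Over all genes at any level, 13.2%, 16.6% and 15.4% were bound in those Lin- replicates and 14.9% and 17% in the CD11b+ ones. Shares per library at 100 or more counts were not computed. Mcm7, a subunit of the replicative helicase, had 8, 8 and 6 peaks in Lin- and 0 and 4 in CD11b+ biological replicates. Uhrf1, which couples DNA methylation to replication, had 6, 4 and 2, and Rrm2, a subunit of ribonucleotide reductase, had 5, 2 and 4, with none for either in CD11b+ cells. The median of the list was 4016 normalized counts in Lin- and 1701 in CD11b+ cells. The part that S-phase content has in the histone peaks was not tested.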

How the data were processed

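Per the labels and the methods, the authors mapped RNA-seq and eCLIP reads to mm10 with STAR 2.5.3a, masked repeats with Bowtie2 and RepeatMasker, and compared genotypes with DESeq2, with fdrtool named for Lin- cells. Poly(A) RNA-seq was deposited as 1 table per cell type, whose mean normalized count, a signal column pooled over both genotypes, was the only value used. The log2 fold change, its error, test statistic, p, adjusted p and peak annotation hold the authors' comparison and were not used, so the targeted gene was not checked per library. For eCLIP, the authors called CLIPper peaks per library and removed those that overlap smInput peaks. The deposited p-value column has no header and was read as the CLIPper p-value. Per the file headers, inputs and eCLIP libraries were deduplicated with different settings.

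Peaks were joined to genes by the Ensembl ID in their names. Coordinates are mm10, counted from 1, and gene models came from GENCODE M21, sequences from GRCm38 (RefSeq). A peak whose ID gene lies on the other strand, or over 500 bases away, was placed on the histone gene it overlaps, which concerned 7 of 412 filtered histone peaks. Tests were exact permutation or sign-flip tests over biological libraries, run in Python 3.11.15 with NumPy 2.4.6, pandas 2.3.3, SciPy 1.17.1, pysam 0.24.0 and matplotlib 3.10.9, and tested on simulated data. Technical libraries entered no main test. Per the methods, each input came from a portion set aside from the sample after immunoprecipitation, so eCLIP and smInput libraries of 1 number were taken as pairs.

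Named genes were those with a filtered peak in at least 2 libraries of either cell type, the 3 highest of each class in each table, the 3 with the most smInput peaks, and up to 3 with the most peaks per comparison list. The members and lists were chosen with earlier results of these data known. Alternatives covered the peak set, a CLIPper p below 0.001, technical libraries, left-out replicates, assignment by coordinates, pairing, overlap, low levels and the pseudocount. The stem-loop comparison, the reads and the narrower gene sets were added after the data had been seen.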

Additional observations from a re-analysis of the deposited data

Results flagged for a closer look

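Among 14 groups of libraries, 3 held a library whose gap to the others exceeded Dixon's 95% limit. In both CD11b+ groups among them all other values were 0, so that any value above 0 had to exceed it. The groups also mix biological and technical libraries, so 3 of 14 cannot be set against the 1 in 20 of that limit. In the Lin- smInput libraries, replicate 6 had 0.382% of its peaks on histone genes, while the other 5 had 0 to 0.0751%. Its 4 peaks lay on H4c12 (2 peaks), H1f4 and the H2ac19 start, with 3 to 6 reads each. In the CD11b+ smInput libraries, replicate 2 had 0.0531% and the other 3 had none, which is 1 peak of 13 reads at the H2ac19 start. In the CD11b+ eCLIP libraries, replicate 2 lost 11.1% of its histone peaks to the input filter and the others lost none, which is that same site, 1 of 9 peaks.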

How the results depend on the processing

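All results kept their direction except as follows. The median width turned sign with the mean width (3.71 bases), and the sharing of histone peaks between replicates ran from -2.32 to 33.2 percentage points with a replicate left out, with the low end without Lin- replicate 2. The eCLIP against smInput difference of 0.422 percentage points lost its call under the replicate block (0.422, exact p = 0.0625) and at a CLIPper p below 0.001 (0.588, exact p = 0.05), and with a replicate left out it was 0.235 to 0.521, where no p under 0.05 is possible. The difference in the share of filtered peaks was 1.14 percentage points at a CLIPper p below 0.001 and 0.416 without Lin- replicate 2. The difference in bound genes was 21.5 to 32 with a replicate left out and 26.2 at a CLIPper p below 0.001, where the exact p was 0.2. Bound histone genes in Lin- cells were 53.1% with a peak in 2 biological libraries and 54.7 to 75.0% with a replicate left out. In CD11b+ cells they were 4.69% with a peak in 2 biological libraries, 4.69% at a CLIPper p below 0.001, and 12.5% without either replicate. The median percentile of histone genes was 33.4 and 17.4 in the Lin- table and 39.2 and 19.2 in the CD11b+ table among genes with a mean of at least 1 and 10, by construction of fewer genes. In 64 further combinations of a result with an alternative, direction and call, or a value without a test within its limit, were as before. The number of libraries sets the limit, since neither 3 against 2 libraries nor a sign-flip test over 5 or fewer can pass 0.05. In those tests the call could not change, so that only the direction was compared. The move of the exact p for bound genes from 0.1 to 0.2 counts among the 64.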

Other observations

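Histone genes of GENCODE M21 that the name rule does not reach carried peaks too. Hist2h3c1, an H3 gene with a stem-loop, had 29 filtered peaks over all 6 Lin- libraries and 4 over all 4 CD11b+ libraries. Hist3h2a had 8 peaks in 4 Lin- libraries and Hist4h4 had 4 in 3, with none in CD11b+ cells. H2afx, a replacement H2A gene that holds the stem-loop pattern as well, had 1, 2 and 0 filtered peaks in Lin- and 1 and 1 in CD11b+ biological replicates.

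The gene model of H2bc6 spans more than its coding exon, and 5 of its filtered Lin- peaks lay 25325 to 25590 bases before its stop codon. The H2bc4 peak of CD11b+ replicate 2 lay about 1400 bases after the stop codon.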
